A study of Mus musculus with 42 samples.

Results

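Gap43, Gng8, Stmn1, Stmn2, Dpysl3, Dpysl5, Crmp1, Dcx, Tubb3 and Cxcr4 are genes that immature olfactory sensory neurons are known to express, and their levels were followed in mice that smelled different foods. The 10 genes were taken as a list of names, matched by symbol to GENCODE M21, from the 44674 genes of the table. All 10 were found, and all 10 are among the 21168 genes that passed the filter on low counts. The samples were main olfactory epithelia of adult male C57BL/6NCrl mice, 8 to 12 weeks old, dissected after 1 h with no odour or with the odour of a normal chow diet (NCD), of a bacon-flavoured diet (BFD, labelled as bacon) or of a lard-based high-fat diet (HFD). Each pool combined 4 epithelia, and 5 pools had no odour, 6 had NCD, 5 had BFD and 5 had HFD odour. Each of the 21 pools gave an input library, from the whole tissue, and a pulldown library. The pulldown used an antibody to the phosphorylated form of ribosomal protein S6 and captures the ribosomes of recently active cells with their messenger RNA. The design compares the RNA of active cells between food odours and no odour. Levels are CPM, a gene's counts per 1000000 counts of the library after TMM scaling, and a ratio is the log2 of pulldown over input CPM in the same pool.

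The olfactory epithelium makes sensory neurons throughout life. Basal progenitors divide, their daughters extend an axon to the olfactory bulb, and the cells then lose the genes of axon growth and gain those of odour transduction, such as Omp, the olfactory marker protein. The list holds a membrane protein of growth cones (Gap43), a G protein gamma subunit typical of immature sensory neurons (Gng8), tubulin-binding stathmins (Stmn1, Stmn2), collapsin response mediator proteins that act in axon guidance (Dpysl3, Dpysl5, Crmp1), the microtubule-associated doublecortin (Dcx), a neuronal beta-tubulin (Tubb3) and the receptor of the chemokine Cxcl12 (Cxcr4). These genes are not equally specific: Tubb3, Stmn1 and the collapsin response mediator proteins are also found in other neurons, and Cxcr4 in basal progenitors and blood cells. In bulk tissue, fewer cells of a type and less RNA per cell cannot be told apart.

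The members lie on different chromosomes, apart from Dpysl5 (chr5:30711564-30799375) and Crmp1 (chr5:37241940-37292133), both on the plus strand of GRCm38. The longest protein-coding transcript ran from 910 bases in Gng8 to 9074 bases in Dcx, with 5479 in Dpysl3, 5191 in Dpysl5 and 3051 in Crmp1. Of the 10 genes, 6 had a promoter in the RefSeq table for GRCm38.p6. Promoters of 3 members that behaved differently in these data, Gng8 (most enriched in the pulldown), Dpysl5 (the ratio that fell most with odour) and Cxcr4 (least enriched), are shown as the 250 bases upstream of the start, 5′ to 3′ on the gene's strand. Capitals mark matches on either strand to an Ebf-type motif (TCCC and GGGA with any 2 bases between them), an E-box (CAGCTG), a homeodomain motif (TAATTA), a GC box (GGGCGG) or a TATA box (TATAAA).
Gng8, chr7:16891536-16891785, plus strand: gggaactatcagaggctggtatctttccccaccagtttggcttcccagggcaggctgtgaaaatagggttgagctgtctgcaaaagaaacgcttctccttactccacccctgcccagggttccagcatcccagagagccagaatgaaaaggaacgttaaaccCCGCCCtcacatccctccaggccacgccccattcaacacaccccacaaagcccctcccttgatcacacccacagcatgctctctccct
Dpysl5, chr5:30711314-30711563, plus strand: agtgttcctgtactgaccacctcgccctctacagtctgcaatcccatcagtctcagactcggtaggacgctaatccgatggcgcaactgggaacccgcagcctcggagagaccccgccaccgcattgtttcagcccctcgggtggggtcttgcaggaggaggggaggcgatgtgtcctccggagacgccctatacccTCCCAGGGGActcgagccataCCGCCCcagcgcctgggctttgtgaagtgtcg
Cxcr4, chr1:128592300-128592549, minus strand: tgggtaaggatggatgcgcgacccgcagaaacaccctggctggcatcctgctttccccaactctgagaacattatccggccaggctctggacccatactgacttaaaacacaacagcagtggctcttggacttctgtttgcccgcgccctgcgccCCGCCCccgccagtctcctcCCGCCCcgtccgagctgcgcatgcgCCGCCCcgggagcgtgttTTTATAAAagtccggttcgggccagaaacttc
The Gng8 window held 1 GC box, the Dpysl5 window 1 Ebf-type match and 1 GC box, and the Cxcr4 window 3 GC boxes and 2 overlapping TATA-box matches, 1 on each strand. Of the 32851 promoters of the table, 0.779% held the Ebf-type motif, 32.7% the GC box and 12.4% the TATA box. A match is a string of letters and not a shown binding site.

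Per kilobase of transcript, Stmn1 was the most abundant member of the input (269 CPM per kilobase, SD 59.6, n = 21 pools), and Cxcr4 the least (4.41, SD 0.681). Between them, Stmn2 stood at 109.8 CPM per kilobase, Tubb3 at 88.8, Dcx at 81.8, Gap43 at 81.5, Dpysl3 at 60.6, Dpysl5 at 49.2, Gng8 at 38.5 and Crmp1 at 19.9. Tubb3, Dcx and Gap43 differed from one another by less than 1 SD over pools (12.4 to 15.5), so that their order is not resolved. Omp, the marker of mature neurons, was at 2868 CPM per kilobase in the same inputs. In the pulldown, Stmn1 was again first (462 CPM per kilobase) and Cxcr4 last (2.75), while Gng8 reached 106. Stmn1 shares 42.6% of its words of 31 bases with 4 other genes, most with Gm11223, so that its level depends on how the estimation shared those reads. The same share was 3.26% for Tubb3 and under 1% for each of the other 8 members.

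**Figure D1:**
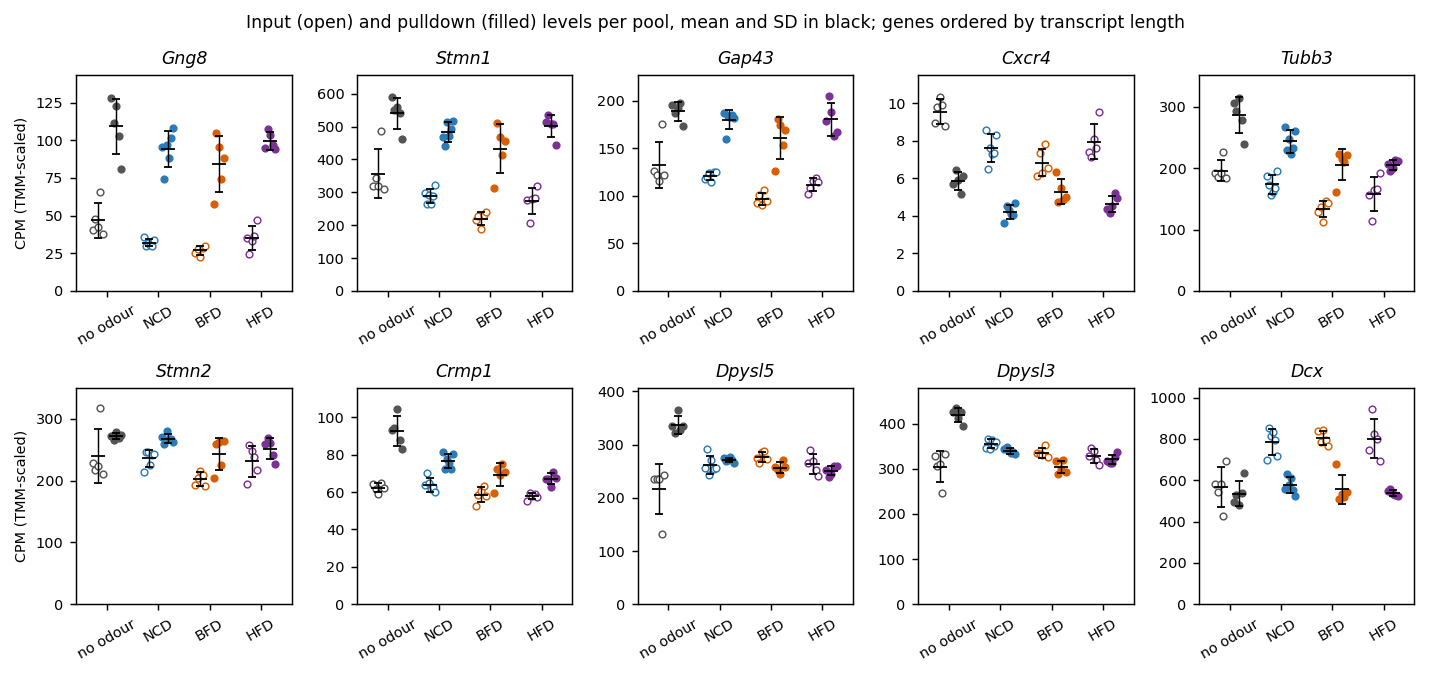
Input (open) and pulldown (filled) CPM of each of the 10 members, with 1 point per pool, the groups along the x axis, and the mean and SD of each group in black. The 16 odour pulldowns lie below all 5 pulldowns without odour in the panels of Dpysl3, Dpysl5 and Crmp1.

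The 42 libraries held 24839555 to 36781553 counts, and relative counting error is largest for Cxcr4. The pools without odour stood apart in 2 measures that touch the results below. Ribosomal RNA genes took 21.7% to 32.2% of the input counts without odour and 9.75% to 21.9% with odour, and 14.6% to 28.5% against 10.7% to 21.7% in the pulldown. An index of length took the median log2 deviation of 3908 genes with transcripts over 4500 bases. From it the median of 2190 genes with up to 1500 bases was subtracted. The index ran from -1.003 to -0.13 in the inputs without odour and from -0.22 to 0.44 in those with odour. In the pulldowns it ran from -0.07 to 0.22 and from -0.17 to 0.46. The lowest input was replicate 4 without odour (-1.003) and the highest pulldown was BFD replicate 1 (0.46), and both are followed below.

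Without odour, most of the members were enriched in the pulldown over the input of the same pool. Of the 10 genes, 7 were higher in the pulldown and 1 was lower by edgeR's quasi-likelihood test (threshold, adjusted p = 0.001), beside 19.8% and 16.0% of all genes tested. Gng8 was enriched most (log2 change 1.23), followed by Dpysl5 (0.67), Stmn1 (0.62), Crmp1 (0.57), Tubb3 (0.54), Gap43 (0.53) and Dpysl3 (0.47). Cxcr4 was depleted (-0.70), and Stmn2 (0.20) and Dcx (-0.07) did not pass. Averaged over the 4 groups, 6 members were higher and 2 lower, beside 34.0% and 33.3% of all genes. Gng8 was at 1.48 ± 0.07 (SE, n = 21 pools, adjusted p = 3.45e-14), Cxcr4 at -0.68 ± 0.05 (adjusted p = 2.95e-12) and Dcx at -0.41 ± 0.04 (adjusted p = 5.75e-11), while Dpysl3 (0.06) and Dpysl5 (0.14) did not pass. Among genes of like transcript length, the values of Gng8, Cxcr4 and Dcx stood at percentiles 90.6, 15.4 and 36.9. Of all genes over 7000 bases, the range that holds Dcx, 52.1% were called lower, with a median of -0.23. The genes of basal and supporting cells were depleted in the same libraries, with all 6 markers of horizontal basal cells and all 8 of sustentacular cells lower in the pulldown.

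With odour, the ratio of the 3 collapsin response mediator proteins and of doublecortin was lower than without odour. For the mean of the 3 odours against no odour, 4 of the 10 members were lower and 0 higher, beside 2.37% and 3.1% of all genes. Dpysl5 changed by -0.71 ± 0.10 (adjusted p = 1.87e-05), Dpysl3 by -0.54 ± 0.07 (adjusted p = 1.05e-05), Dcx by -0.44 ± 0.08 (adjusted p = 0.000449) and Crmp1 by -0.33 ± 0.07 (adjusted p = 0.000932). The other 6 did not pass: Gng8 0.33, Stmn1 0.24, Gap43 0.13, Cxcr4 0.04, Stmn2 -0.01 and Tubb3 -0.04. The median of the 10 members was -0.03, beside -0.01 for all genes. Without the pool of replicate 4 without odour, Dpysl3 (-0.46), Dpysl5 (-0.55) and Crmp1 (-0.35) remained below the threshold and Dcx did not (-0.34, adjusted p = 0.00167). In the fit with no term for the pool, Dcx did not pass either (-0.43, adjusted p = 0.00173), while Dpysl3, Dpysl5 and Crmp1 did. Without replicate 2 without odour 2 members were called, Crmp1 and Dcx having lost their calls, and Crmp1, the closest to the threshold, lost it in 17 of the 21 fits that each left out 1 pool.

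**Figure D2:**
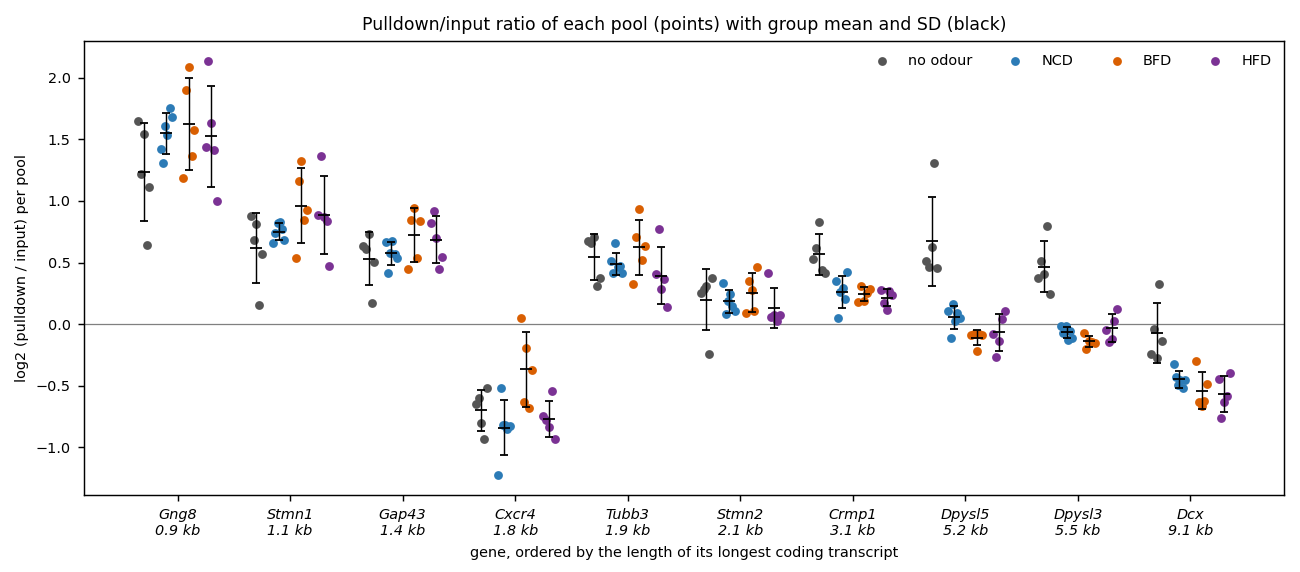
Log2 ratio of pulldown over input CPM of each member, with 1 point per pool and the mean and SD of each group in black, genes in order of transcript length. All 16 odour pools lie below all 5 pools without odour for Dpysl3, Dpysl5 and Dcx, and the Dpysl5 pool without odour at 1.31 is replicate 4.

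Dpysl5, which modulates the growth of axons and dendrites, stood at 336, 323, 365, 327 and 334 CPM in the 5 pulldowns without odour. With NCD odour it ran from 265 to 277 (median 271), with BFD odour it was 259, 252, 245, 271 and 257, and with HFD odour 252, 240.1, 245, 261 and 259.7. No pulldown with odour reached the lowest one without odour. In the inputs it was 235, 235, 236, 132 and 243 CPM without odour, and 241 to 292 CPM in the 16 inputs with odour. Its ratios without odour were 0.51, 0.46, 0.63, 1.31 and 0.46, those with NCD odour -0.11 to 0.16 (median 0.07), those with BFD odour -0.09, -0.08, -0.22, -0.08 and -0.08, and those with HFD odour -0.08, -0.27, -0.13, 0.04 and 0.11. The groups with and without odour did not overlap in the ratio, as for 1.69% of all genes in that direction, and the value of 1.31 comes from the low input of replicate 4.

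Dpysl3, of the same protein family, showed the same separation. Its pulldown CPM were 426, 434, 413, 426 and 395 without odour, 334 to 348 (median 338) with NCD odour, 318, 289, 299.9, 320.2 and 294 with BFD odour, and 317, 313, 312, 325 and 337 with HFD odour. The 2 sets did not overlap. Its ratios were 0.37, 0.51, 0.41, 0.79 and 0.24 without odour, -0.13 to -0.02 (median -0.06) with NCD odour, -0.07, -0.20, -0.14, -0.14 and -0.15 with BFD odour, and -0.05, -0.14, -0.12, 0.03 and 0.12 with HFD odour. Again no ratio with odour reached those without. Crmp1, also of the family, was less abundant: 93.0, 94.2, 105, 88.0 and 82.9 pulldown CPM without odour, 72.4 to 81.5 (median 76.7) with NCD odour, 59.5, 72.3, 69.1, 75.3 and 70.7 with BFD odour, and 67.0, 67.1, 62.6, 71.0 and 67.7 with HFD odour. Its pulldown levels did not overlap between pools with and without odour, and in the ratio 15 of 16 odour pools lay below all 5 others.

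Dcx, which stabilizes the microtubules of migrating and growing neurons, had a lower ratio beside overlapping pulldown levels. Its pulldown CPM were 493, 529, 480.3, 536 and 634 without odour, 526 to 633 (median 568) with NCD odour, 679.9, 508, 532, 517 and 544 with BFD odour, and 548, 557, 532, 531 and 525 with HFD odour, so that the groups overlapped. Its input CPM were 584, 543, 581, 427 and 696 without odour, 699 to 852 (median 806) with NCD odour, 837, 787, 842, 797 and 764 with BFD odour, and 744, 944, 825, 798 and 693 with HFD odour. Of the 16 inputs with odour, 15 lay above all 5 without. In the fits of 1 kind of library below, Dcx was called in the input and not in the pulldown.

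The pulldown libraries were also compared alone, without division by the input. In that fit 4 members were lower with odour, beside 3.99% of 19765 genes, and 0 were higher, beside 4.39%. Tubb3 changed by -0.40 ± 0.06 (adjusted p = 2.97e-05), Crmp1 by -0.39 ± 0.05 (adjusted p = 3.73e-06), Dpysl3 by -0.39 ± 0.04 (adjusted p = 6.72e-08) and Dpysl5 by -0.38 ± 0.04 (adjusted p = 7.01e-08). Dcx stood at 0.06 (adjusted p = 0.573), and Cxcr4 (-0.32), Gng8 (-0.25), Stmn1 (-0.20), Gap43 (-0.13) and Stmn2 (-0.10) did not pass, which leaves 9 of 10 values below 0 and a median of -0.29, beside 0.00027 for all genes. Tubb3 was at 307, 294, 314, 279 and 239 pulldown CPM without odour, at 223 to 268 (median 240.3) with NCD odour, at 161, 223, 216, 209.6 and 221 with BFD odour, and at 207, 195, 199.9, 214 and 211 with HFD odour. Of the odour groups, only NCD held pools that reached the lowest of the pools without odour. All 16 odour pulldowns lay below all 5 others for Dpysl3, Dpysl5 and Crmp1, as for 1.96% of all genes. This fit does not separate a change in the captured RNA from one in the whole tissue. The input value of Tubb3 was also below 0 (-0.35), though it did not pass. The 4 calls held in each of the 21 fits that left out 1 pool, the fit without BFD replicate 1 included, with values between -0.46 and -0.34. Corrected for the length trend, an alternative added after seeing the data, 5 members were lower, Stmn1 (-0.23) being the fifth, beside 4.82% of all genes. With a term for the ribosomal RNA share, also added later, 2 passed, Dpysl5 (-0.35 ± 0.06, adjusted p = 0.00032) and Dpysl3 (-0.32 ± 0.05, adjusted p = 0.000714), beside 0.258% of all genes.

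In the input, which measures the whole tissue, the members split. With the 3 odours together, Dcx was higher (0.49 ± 0.08, adjusted p = 8.77e-05), and Gng8 (-0.59 ± 0.11, adjusted p = 0.000459), Stmn1 (-0.46 ± 0.09, adjusted p = 0.000324) and Cxcr4 (-0.36 ± 0.08, adjusted p = 0.000691) were lower. That is 1 member higher and 3 lower, beside 5.26% and 6.73% of 20451 genes. Tubb3 (-0.35, adjusted p = 0.00134), Gap43 (-0.27, adjusted p = 0.00235), Dpysl5 (0.31, adjusted p = 0.00852) and Dpysl3 (0.15, adjusted p = 0.0297) did not pass 0.001, and Stmn2 (-0.11) and Crmp1 (-0.06) did not pass 0.05. Gng8 input CPM were 40.6, 47.8, 42.1, 65.9 and 37.5 without odour, 30.02 to 35.7 (median 31.1) with NCD odour, 25.3, 28.0, 22.5, 28.8 and 29.5 with BFD odour, and 35.0, 24.5, 33.4, 36.5 and 47.0 with HFD odour. Of the 16 odour inputs 15 lay below all 5 others, the exception being HFD replicate 6. Cxcr4 was at 8.93, 9.79, 10.3, 9.91 and 8.79 input CPM without odour, at 6.48 to 8.58 (median 7.49) with NCD odour, at 6.14, 7.35, 6.29, 7.83 and 6.53 with BFD odour, and at 7.41, 7.14, 8.08, 7.60 and 9.54 with HFD odour, again with 15 of 16 below. None of the 10 members separated all 16 inputs with odour from all 5 without, as 1.37% (below) and 2.63% (above) of all genes did. Without replicate 4 without odour 1 member was called, Dcx (0.40, adjusted p = 9.8e-05), and without replicate 2 without odour 2 were.

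The input changes followed transcript length. Over all genes tested, the median input change with odour was -0.29 for transcripts up to 1000 bases and 0.27 for those over 7000 bases, and the median ratio change was 0.32 and -0.32. The short members Gng8, Stmn1, Gap43, Cxcr4 and Tubb3 lay below 0 in the input and the long Dpysl3, Dpysl5 and Dcx above it. Set among genes of like length, the ratio change of Dpysl5 stood at percentile 3.44, that of Dpysl3 at 8.05, of Crmp1 at 17.6 and of Dcx at 29.1. When each library was corrected for its trend with length, an alternative chosen after seeing the data, 0 of 10 members passed in the input, beside 6.52% of all genes, and 3 in the ratio, beside 1.69% of all genes lower. The 3 were Dpysl5 (-0.57 ± 0.07, adjusted p = 7.84e-06), Dpysl3 (-0.39 ± 0.05, adjusted p = 8.16e-06) and Crmp1 (-0.33 ± 0.06, adjusted p = 0.000466), while Dcx was at -0.14 (adjusted p = 0.0700). In this fit all 10 members lay below 0 (median -0.13, beside -0.03 for all genes). With a term for the ribosomal RNA share, 2 members were lower in the ratio, beside 0.387% of all genes, and 0 passed in the input, beside 0.0196% of all genes higher and 0 lower, where the values of Gng8 (0.24), Stmn1 (0.11), Tubb3 (0.14) and Dcx (-0.07) changed sign. The share differed between pools with and without odour, so that its part cannot be told apart from that of the odour.

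**Figure D3:**
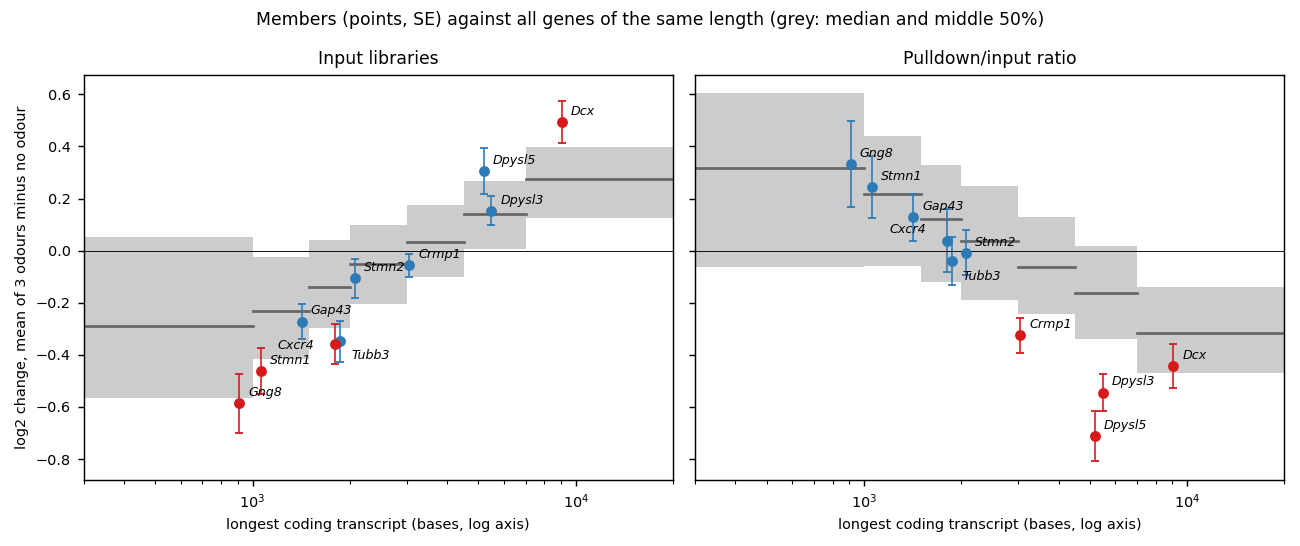
Log2 change (mean of the 3 odours minus no odour) of the 10 members, with bars of 1 SE, against transcript length in bases on a log axis, in the input (left) and the ratio (right), red where the adjusted p-value is under 0.001 and over the median and middle 50% of all genes of each length range in grey. In the ratio, Dpysl3 (-0.54), Dpysl5 (-0.71) and Crmp1 (-0.33) lie below the grey band and Dcx (-0.44) within it.

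**Figure D4:**
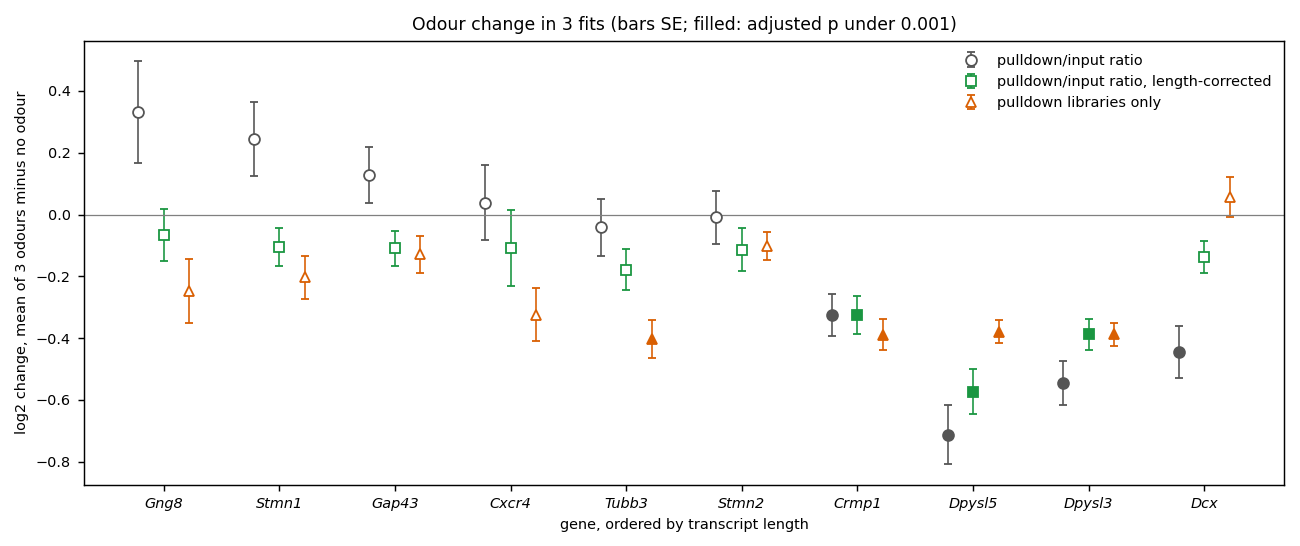
Log2 change of each member (mean of the 3 odours minus no odour, bars of 1 SE) in the ratio, in the length-corrected ratio and in the pulldown libraries alone, with filled symbols where the adjusted p-value is under 0.001 and genes in order of length. Crmp1, Dpysl5 and Dpysl3 are filled in all 3 fits, Dcx in the ratio alone and Tubb3 in the pulldown alone.

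Each odour was also compared with no odour on its own. With NCD odour 1 member was lower in the ratio (Dpysl3, -0.53, adjusted p = 0.000264), beside 0.165% of all genes, and Dpysl5 stood at -0.62 (adjusted p = 0.00143). With BFD odour Dpysl3 (-0.61, adjusted p = 5.90e-05) and Dpysl5 (-0.78, adjusted p = 9.87e-05) were lower, beside 1.32%, and with HFD odour the same genes were lower (-0.50, adjusted p = 0.000566, and -0.74, adjusted p = 0.000272), beside 0.52%. The 3 comparisons share the pools without odour and are not independent. The count for NCD was 0 without NCD replicate 4 or 6 or replicate 2 without odour and 2 without BFD replicate 1 or replicate 4 without odour, and the count for HFD was 0 without HFD replicate 1, 2 or 3 and 1 without HFD replicate 5 or replicate 1, 2 or 3 without odour. At an adjusted p-value under 0.05, Crmp1 and Dcx also passed with each odour, beside 6.31%, 10.5% and 8.03% of all genes lower. In the input, 1 member was higher with BFD odour (Dcx, 0.51) and 5 were lower, namely Gng8 (-0.80), Stmn1 (-0.69), Tubb3 (-0.56), Cxcr4 (-0.48) and Gap43 (-0.45), beside 5.41% and 8.34% of all genes, and with NCD or HFD odour 0 members passed, beside 0.998% and 0.963%. In the 2 fits that left out BFD replicate 1 or BFD replicate 3 this count of 6 was 2. The count of 0 for HFD became 1 without HFD replicate 6 or replicate 6 without odour, and that for NCD became 1 without HFD replicate 2 or replicate 6 without odour. When a fit held only the pools of the groups compared, 0 members passed in the ratio with any single odour, beside 0.216%, 0.0049% and 0.0247% of all genes lower for NCD, BFD and HFD.

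Between odours, 0 of the 10 members passed in edgeR's test of the ratio, beside 0.00945%, 0.0236% and 0.0378% of all genes for BFD against NCD, HFD against NCD and HFD against BFD. DESeq2 also called 0. At an unadjusted p-value under 0.05 there were 1, 0 and 1 members, each time Cxcr4, whose ratio was 0.48 ± 0.14 higher with BFD than with NCD odour (adjusted p = 0.501) and stood at -0.41 with HFD against BFD odour. The Cxcr4 ratios were 0.05, -0.63, -0.20, -0.68 and -0.37 with BFD odour and -1.22 to -0.52 (median -0.82) with NCD odour, so that they overlapped. In the input 0 members passed between odours (1 for BFD against NCD without replicate 4 without odour), beside 0.108%, 0.0538% and 0.0831% of all genes in the same order, and 5, 1 and 6 had an unadjusted p below 0.05. Gap43 (-0.32, adjusted p = 0.0345) and Tubb3 (-0.38, adjusted p = 0.0349) were the closest, lower with BFD than with NCD odour. In the fit of those groups alone 3 members were lower with BFD than with NCD odour, beside 1.63% of all genes, namely Gap43 (-0.31, adjusted p = 7.61e-05), Stmn1 (-0.38, adjusted p = 0.000214) and Tubb3 (-0.37, adjusted p = 0.000851).

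Relatives of the members by family were compared in the same way. Of 24 relatives, 1 was lower and 1 higher in the ratio with odour, beside 2.37% and 3.1% of all genes, with a median of -0.14. Among collapsin response mediator proteins, Dpysl2 (-0.11 ± 0.06) and Dpysl4 (-0.34 ± 0.25) did not pass, unlike the 3 members of that family, although the difference itself was not tested. Of the doublecortin family, Dclk1 was lower (-0.35 ± 0.07, adjusted p = 0.000936) and Dclk2 was at -0.03. The stathmins Stmn3 (0.64) and Stmn4 (0.26) did not pass, nor did the growth cone proteins Basp1 (-0.21), Marcks (-0.19) and Marcksl1 (-0.04). The tubulins ranged from -0.49 for Tubb6 and -0.27 for Tubb5 over Tubb2b (-0.17), Tubb2a (-0.10), Tuba1a (0.02) and Tubb4b (0.06) to 0.56 for Tubb4a, none of them called, and Map1b, a microtubule-associated protein, stood at -0.41 (adjusted p = 0.0133). Of the G protein subunits, Gng13, which serves odour transduction, was higher (1.03 ± 0.19, adjusted p = 0.000673), and Gnb1 (0.30), Gng7 (0.25), Gnao1 (-0.19) and Gng2 (-0.31) did not pass. The Cxcr4 ligand Cxcl12 (-0.33) and the scavenging receptor Ackr3 (-0.23) did not pass either. In the input 5 relatives were lower and 0 higher, beside 6.73% and 5.26% of all genes. Among the 5 were Stmn4 (-0.47), Marcksl1 (-0.32) and Tubb4a (-1.79).

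Other genes known from immature neurons were set beside the members as a list. Of 24, 2 were lower and 0 higher in the ratio with odour (median -0.17), beside 2.37% and 3.1% of all genes. The 2 were Ablim1, an actin-binding protein (-0.59 ± 0.10, adjusted p = 0.000117), and Plxna1, a semaphorin receptor (-0.52 ± 0.11, adjusted p = 0.000758). Ddit3, a stress-induced transcription factor, was next (0.45, adjusted p = 0.00116). In the input 3 were higher and 3 lower, beside 5.26% and 6.73% of all genes, led by Ddit3 (-0.67), Trib3 (-0.63) and Plxna1 (0.57). In the pulldown libraries alone their median was -0.0016, with 2 lower, beside the median of -0.29 and 4 lower of the members. In that fit 3.99% of all genes were lower. The 24 relatives had a median of -0.18 there, with 5 lower, and the 6 markers of horizontal basal cells -0.33, with 0 called. The 15 genes of mature neurons had a median of 0.19. Differences between these lists were not tested. Among 12 markers of dividing progenitors, which precede these neurons, Top2a was lower in the ratio (-0.64 ± 0.11, adjusted p = 0.000122), beside 2.37% of all genes. Mki67 stood at -0.49 and did not pass. In the pulldown alone all 12 lay below 0 (median -0.32) and 5 were called lower, beside 3.99% of all genes.

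Markers of the other cells were set beside these values. Of 15 genes of mature neurons 2 were higher in the ratio, beside 3.1% of all genes higher and 2.37% lower. These were Omp (0.49 ± 0.08, adjusted p = 0.00018) and Gng13, with Cnga2 next (0.25). Gng13 has 719 bases, and genes up to 1000 bases had a median ratio change of 0.32, with 7.40% called higher. Corrected for the length trend, the highest value of the 15 was 0.57. The summed pulldown level of the 15 was 18184 to 22065 CPM (median 18786) without odour and 20189 to 27536 CPM (median 24777) with odour. Among 7 genes of ensheathing glia, Fabp7 (0.71) and Npy (1.27) were higher. None of the markers of horizontal basal cells (6), sustentacular cells (8), neutrophils (10), B and plasma cells (7 tested) and red cells (7 tested) was called in the ratio with odour. The summed level of the 10 members was 2681 to 2846 CPM in the pulldowns without odour and 2185 to 2594 CPM in those with odour. As shares of the total counts, without TMM scaling, these sums were 2484 to 2817 and 2246 to 2638 CPM and overlapped. In the inputs the scaled sums overlapped, at 2071 to 2209 and 2127 to 2418 CPM, and no member was at 0 in any library. The part of other cells in the members' changes was not tested.

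The members did not vary as 1 block from pool to pool. As deviations from the group means over the 21 inputs, described here without a test, Stmn1 went with Gng8 (r = 0.95) and Tubb3 with Gng8 (r = 0.87), Dpysl5 went with Dpysl3 (r = 0.94), and Dcx ran against Gng8 (r = -0.91) and Stmn1 (r = -0.89). The first set holds short transcripts and the second long ones, and the pools share the length trend described above. Correlated with the mean of the other 9 members, Gap43 (r = 0.48) and Tubb3 (r = 0.46) were highest and Dcx (r = -0.64), Dpysl5 (r = -0.60) and Dpysl3 (r = -0.50) lowest. The 5 genes most like the mean of all 10 members were Ptbp1 (r = 0.90), Gm9761 (r = 0.88), Eno1 (r = 0.87), Aars (r = 0.87) and Tomm34 (r = 0.86).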

How the data were processed

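The authors captured ribosomes with phosphorylated S6 from pooled main olfactory epithelia, sequenced pulldown and input, ran the nf-core rnaseq pipeline with Salmon on GRCm38 and deposited estimated counts per gene without normalization (expected counts, of which 30.9% are not whole). The annotation release is not given in the sources used here, and names were matched to GENCODE M21, which left 556 of 44674 genes (0.525% of the counts) without a name. Totals were 25392812 to 36738330 in pulldown and 24839555 to 36781553 in input libraries, and replicates are pools as numbered in the labels.

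Counts were rounded, filtered with filterByExpr (minimum count 10) and scaled with TMM. edgeR 4.0.16 (limma 3.58.1, R 4.3.3) fitted robust quasi-likelihood models, one for the ratio over 42 libraries (pools as terms, with the pulldown effect of each odour, 21168 genes, biological coefficient of variation 12.0%) and one over 21 inputs (20451 genes, 11.7%). P-values are two-sided, were adjusted with the Benjamini-Hochberg method over all genes tested, and were called under 0.001. Log2 levels used a prior count of 2. The pool term rests on the methods, by which the counts of each pulldown were divided by those of its input. Over 21 pools the median correlation of their deviations was 0.014, beside -0.004 with the inputs of other pools of the group. The data themselves thus show hardly any pairing. In simulated counts the ratio model found 76 of 100 genes given a 2-fold change and 94 of 100 given a 4-fold change. These were among 20706 genes, with 0 wrong calls. The input model found 87 and 97 of 100 among 20265 genes, with 0 wrong calls. The changes of the members with odour were smaller than 2-fold, so the simulation does not give the share found at their size. The real pools with and without odour differ in ribosomal RNA share and length index. Whether such differences lead to wrong calls was not tested in the simulation.

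The 10 members and all lists were chosen with earlier results of these data known. The rule was to name all members, their relatives by family, of each other list the 3 genes with the smallest p-values, and the 5 genes most like the members. It was followed for neuron lists. The lists of other cells without a call in the ratio are given by counts alone, and for progenitors and glia 1 gene each is not reported here. Alternatives were no filter, DESeq2 1.42.0 and its size factors alone, other terms for pool and replicate number, pulldown libraries only, only the groups compared, the ribosomal RNA share (8 genes) as a covariate, ribosomal RNA genes removed, a threshold of 0.05, other scaling and prior counts, and leaving out each pool. Corrections for transcript length and GC content, and the alternatives of the pulldown fit, were added after seeing the data. Promoters are from RefSeq (GRCm38.p6).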

Additional observations from a re-analysis of the deposited data

Results flagged for a closer look

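Of 120 sets of values (10 members, 4 groups, and input CPM, pulldown CPM and log2 ratio), 14 held 1 pool that lay far from the others of its group by Dixon's criterion, where chance gives about 1 in 20. Replicate 4 without odour gave 7 of them. Its input was high for Gap43 (175.2 CPM, median of the other pools 122), Stmn1 (488, other pools 319.9), Stmn2 (318, other pools 221) and Tubb3 (226, other pools 189), and low for Dpysl5 (132, other pools 236). Its log2 ratio was 1.31 for Dpysl5, where the others had a median of 0.49, and -0.24 for Stmn2, where they had 0.30. The length index of this input was -1.003, the lowest of all inputs, and its part in these values was not tested.

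BFD replicate 1 stood apart in the pulldown for Dcx (679.9 CPM, other pools 524) and Tubb3 (161, other pools 219). The length index of that pulldown was 0.46, the highest, and its part was not tested either. The other values were single ones. Gap43 was at 159.6 CPM in the pulldown of NCD replicate 2 (other pools 184), Stmn1 at 443 in the pulldown of HFD replicate 6 (other pools 511), and Dpysl3 at 353 in the input of BFD replicate 4 (other pools 331). The log2 ratio of Stmn2 was 0.42 in HFD replicate 1 (other pools 0.06) and that of Dpysl5 -0.22 in BFD replicate 3 (other pools -0.08).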

How the results depend on the processing

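In the fits as reported, the members called were 1 (NCD), 2 (BFD), 2 (HFD) and 4 (mean of the odours) in the ratio, 0, 6, 0 and 4 in the input, and 4 in the pulldown alone. Where a count below or a sign changed, the cause was not tested, unless the setting itself uses fewer samples. A setting can call more or fewer genes of every kind. A count in this section without the share of all genes is therefore not by itself a result about the members. DESeq2 gave 2 (NCD) and 4 (HFD) in the ratio, and 2 (NCD) and 1 (HFD) in the input. An adjusted p-value under 0.05 gave 4 for each odour in the ratio, and in the input 5 (NCD), 6 (HFD), 2 (BFD against NCD) and 8 (mean). Without a filter there were 2 (NCD) in the ratio, and 1 (NCD) and 1 (HFD) in the input. With only the groups compared, the counts were 0 for each odour in the ratio, 3 (BFD) in the input and 3 for BFD against NCD in the input. The pulldown libraries alone gave 2 (NCD), 4 (BFD) and 4 (HFD). Corrected for length, there were 2 (NCD) in the ratio, and 0 (BFD) and 0 (mean) in the input. Corrected for length and GC, there were 2 (mean) in the ratio and 1 in the input for NCD, BFD, HFD and the mean. With a term for the ribosomal RNA share there were 0 (NCD), 0 (BFD) and 2 (mean) in the ratio, 0 (BFD) and 0 (mean) in the input, and 2 in the pulldown alone.

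The replicate numbers of different odour groups share only a number: the median correlation of same-numbered pools over 27 pairs was 0.0200 in the inputs and 0.00919 in the pulldowns. With the replicate number as a block, the ratio gave 0 (NCD), 0 (HFD) and 2 (mean), and the input 3 (BFD) and 1 (mean).

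Leaving out 1 pool at a time, the counts ran in the ratio from 0 to 2 (NCD), 2 to 3 (BFD), 0 to 2 (HFD) and 2 to 4 (mean), and in the input from 0 to 1 (NCD), 2 to 6 (BFD), 0 to 1 (HFD), 0 to 1 (BFD against NCD) and 1 to 5 (mean). The pulldown alone gave 4 each time, and pulldown against input gave 8 to 9 without odour and 8 each time over the 4 groups. Signs turned for Stmn2 (-0.11 to 0.035), Tubb3 (-0.093 to 0.0091) and Cxcr4 (-0.011 to 0.085) in the ratio and for Stmn2 in the input (-0.15 to 0.0057).

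Signs of single genes also turned elsewhere, for the mean of the odours unless an odour is named. In the pulldown alone, against the ratio, these were Dcx (0.10 NCD, 0.064 BFD, 0.0069 HFD, 0.056 mean), Gap43 (-0.13), Gng8 (-0.25), Stmn1 (-0.20) and Cxcr4 (-0.32). In the ratio corrected for length they were Gap43 (-0.11), Gng8 (-0.065), Stmn1 (-0.11) and Cxcr4 (-0.11), and with GC as well Gap43 (-0.091), Gng8 (-0.017), Stmn1 (-0.079) and Cxcr4 (-0.12). Stmn2 was at 0.0085 in the ratio without the pool term and at 0.0017 without ribosomal RNA genes, and Cxcr4 at -0.025 with the ribosomal RNA covariate. In the input corrected for length, Stmn2 was at 0.013 and Dpysl3 at -0.0016, and with GC as well Dpysl3 was at -0.017. Dcx in pulldown against input over the 4 groups was at 0.016 when corrected for length and GC. With the ribosomal RNA covariate the input gave Gng8 0.20, Stmn1 0.21 and Dcx -0.030 (NCD), Gng8 0.18, Dpysl5 -0.024, Dcx -0.16 and Tubb3 0.024 (BFD), Gng8 0.33, Stmn1 0.14, Dcx -0.015, Tubb3 0.12 and Cxcr4 0.059 (HFD), and Gng8 0.24, Stmn1 0.11, Dpysl3 -0.055, Dpysl5 -0.014, Dcx -0.068 and Tubb3 0.14 (mean). With all pools kept, 633 values of single genes held under an alternative, 56 lost and 25 gained a call, and 9 levels moved by over 1 SD. The 633 are changes that kept their direction and side of the threshold, together with levels that moved by less than 1 SD and have no threshold. Depth limits Cxcr4 most, the member with the fewest counts.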

Other observations

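Blood and glial genes moved between pulldown and input over the 4 groups, a comparison in which 34.0% of all genes were called higher and 33.3% lower. Of 7 tested genes of red cells all 7 were higher in the pulldown (median log2 change 2.19, mean of the 4 groups), and of 10 genes of neutrophils 6 were higher and 2 lower (median 0.65). Of 7 genes of ensheathing glia 6 were lower (median -0.81), and of 24 other genes of immature neurons 18 were higher and 3 lower (median 0.39), where the 10 members had a median of 0.26.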
